A study of Mus musculus with 16 samples.

Results

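The cornea holds macrophages that live among its collagen-producing stromal cells and nerves, and blood monocytes made in the bone marrow are one lineage that can enter tissues and become macrophages. The data described here set cornea macrophages beside bone marrow monocytes. By the source labels, 8 of the 16 RNA-seq libraries of the series belong to these 2 populations, 4 libraries each, and the 8 other libraries are microglia. All mice were C57BL/6, 8 to 10 weeks old, and no library carries a genotype or treatment label. The sort gate for cornea macrophages was CD45+CD11b+CD64+F4/80+, after 2 steps of collagenase D (2 mg/mL) at 37 °C that lasted 1.5 h each, and each library pooled the cells of 10 mice. Bone marrow monocytes were sorted from whole marrow as CD45+CD11b+CD115+Ly6C+ cells. The description field of all 4 marrow samples names retinal microglia, against their title, source and cell population, so the labels used here give neither the number of mice behind a marrow library nor how the marrow was prepared. Tissue and cell type differ together between the populations, and any difference in digestion goes with them, so these cannot be told apart.

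Monocytes carry the receptors and integrins that let them leave blood, and carry azurophil and secretory proteins left over from their marrow precursors. When a monocyte or an embryonic precursor becomes a tissue macrophage, factors of the MAF family, nuclear receptors and SPI-C take part in a program of lipid, iron and dead-cell handling, and the cell gains receptors such as CD206 and F4/80. Macrophages also answer damage and microbes: NF-kappaB and AP-1 switch on chemokines and cytokines within hours, and a warm enzymatic digestion can switch on the same early genes and heat shock genes.

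Each library held 12570116 to 21756558 counts for cornea and 8910707 to 20705066 for marrow. Levels are CPM, the usual depth-scaled read counts, with library totals adjusted by TMM factors. Means are given ± SD over n = 4 libraries per population, and a log2 fold change is cornea minus marrow ± its standard error from edgeR. A gene was called where the adjusted p of edgeR's quasi-likelihood test, over all genes tested, was under 0.05. The labels name 10 mice per cornea library but do not say that the 4 pools or the marrow libraries came from separate sorts, so p-values measure only the spread between these libraries. Libraries of a population all differed by more than counting noise (chi-square per degree of freedom 11.3 to 69.4 between pairs). The column headers place cornea libraries 1 to 3 and marrow library 1 in lane 2 of the sequencer, and the other 4 libraries in lane 3. Rank correlations were 0.950 to 0.977 among cornea libraries, 0.976 to 0.989 among marrow libraries and 0.661 to 0.694 between the populations. A principal component with 85.8% of the variance split the populations. The next one held 5.38% and set cornea library 4 apart from cornea libraries 1 to 3. In these bulk samples, fewer cells with a transcript and less of it per cell cannot be told apart.

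Most of the transcriptome differed between the populations. Of 13933 genes tested, 9124 (65.5%) were called, with 4746 (34.1%) higher and 4378 (31.4%) lower in cornea. At least 2-fold differences were called for 3716 higher (26.7%) and 3084 lower genes (22.1%), and these shares are the background for every list below. Without any model, all 4 cornea libraries lay above all 4 marrow libraries for 4490 genes (32.2%) and below them for 4291 (30.8%), 63.0% of genes in all. The TMM factors were 0.749 to 0.792 in cornea and 1.26 to 1.32 in marrow. With total counts in their place, the median log2 fold change of all genes fell by 0.74 and the split became 3135 higher and 7177 lower, so a difference smaller than this depends on the scaling. Within lane 2 alone 7256 of 16501 genes were called, and within lane 3 alone 8368 of 15042. Of the 9124 genes called in all 8 libraries, 9070 were tested in both lanes, 9021 had the same direction in both, and 5770 were also called in both. A lane holds 1 library of one population and 3 of the other, so the lone library is assumed to vary like the others.

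**Figure D1:**
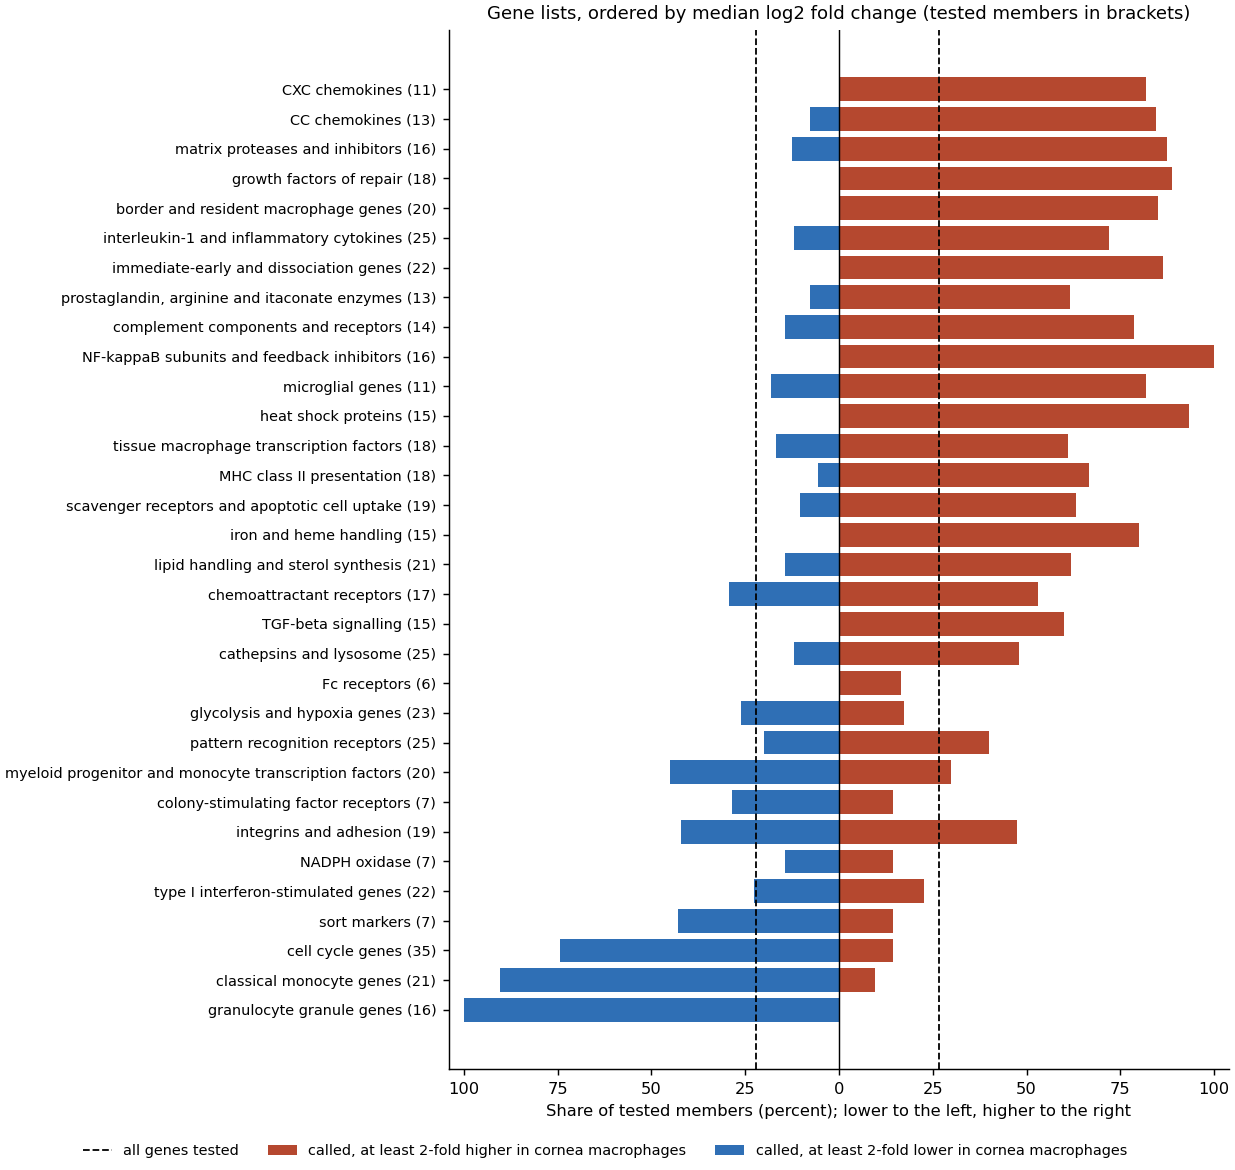
Share of tested members of each of 32 gene lists that were called and at least 2-fold higher (red, to the right) or lower (blue, to the left) in cornea macrophages, in percent. Dashed lines mark the shares among all genes tested, 26.7% and 22.1%; the CXC chemokine list is at the top and the granulocyte granule list at the bottom.

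The antigens used for the sorts were checked first. Ly6c2, one of the genes of the Ly6C antigen on which marrow monocytes were gated, was at 2212, 2008, 2103 and 2066 CPM in marrow libraries 1 to 4 and at 0.101, 0, 0.553 and 0 CPM in cornea libraries 1 to 4 (log2 fold change -13.56 ± 0.48, edgeR adjusted p = 3.2e-09). Adgre1, which encodes the F4/80 antigen of the cornea gate, was at 2244, 2084, 2331 and 2336 CPM in cornea and 293, 314, 337 and 527 CPM in marrow (log2 fold change 2.61 ± 0.19, edgeR adjusted p = 4.8e-07). Neither gene's libraries overlapped, and both differed the way the gates select. Fcgr1, which encodes the CD64 antigen of the cornea gate, went the other way, with 63.7 ± 9.25 against 110.1 ± 5.19 CPM (log2 fold change -0.79 ± 0.13, edgeR adjusted p = 0.00028). The 2 antigens shared by the gates, Ptprc (CD45) and Itgam (CD11b), were lower in cornea, Ptprc at 622 ± 74.7 against 1272 ± 208 CPM (log2 fold change -1.03) and Itgam at 576 ± 78.4 against 735 ± 35.5 CPM (log2 fold change -0.35). Itgam was not called without marrow library 1 or 3 (log2 fold changes -0.34 to -0.35), within lane 2, with marrow libraries 3 and 4 only, with DESeq2 size factors or with a minimum count of 50. Csf1r, the CD115 antigen of the marrow gate and the receptor for CSF-1, was higher in cornea at 2501 ± 186 against 1312 ± 90.0 CPM (log2 fold change 0.93 ± 0.11, edgeR adjusted p = 2.9e-05), and with total counts as scaling it was not called (log2 fold change 0.19). Reads of Ly6c2 and its near copy Ly6c1 may be shared.

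Markers of other cells of each tissue were present and moved with the populations. Markers of corneal epithelium, 10 genes, summed to 214 to 1301 CPM in cornea and at most 3.30 CPM in marrow. Krt12, the keratin of corneal epithelium, was at 428, 97.8, 107 and 62.0 CPM in cornea libraries 1 to 4 and at 0 in all marrow libraries. Krt5, a basal keratin, was at 189, 24.7, 39.6 and 15.8 CPM in cornea and 0 in marrow. Cornea library 1 held the most of both. The 9 markers of corneal stroma summed to 1248 to 2362 CPM in cornea and at most 1.10 in marrow. The proteoglycan genes of the stroma were highest in libraries 3 and 4. Dcn (decorin) was at 479, 530.2, 875 and 889.6 CPM in cornea libraries 1 to 4, Lum (lumican) at 149, 136, 249.7 and 195 CPM and Kera (keratocan) at 198, 141, 351 and 248 CPM. Aldh3a1 and Krt15 of the epithelial list were at 281 and 42.1 CPM on average, and Col1a1 and Col1a2 of the stromal list at 272 and 339.

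In marrow, 7 neutrophil markers summed to 2015, 1054, 357 and 305 CPM in libraries 1 to 4, and 7 erythroid markers to 2067, 1400.5, 408 and 319. Marrow libraries 1 and 2 thus held several times more of both than libraries 3 and 4. The titles differ in the same way, reading BM for libraries 1 and 2 and BM-Mo for libraries 3 and 4, while the source label is the same for all 4. The titles of libraries 3 and 4 each also hold a range of numbers, which those of libraries 1 and 2 lack. What the titles distinguish is not stated there. In cornea the neutrophil sum was 72.9 to 114 CPM, nearly all from Csf3r, and the erythroid sum at most 0.904. Dendritic cell markers summed to 92.7, 177, 98.8 and 167 CPM in cornea libraries 1 to 4, higher in libraries 2 and 4, and 70.2 to 109.8 in marrow. These sums hide opposite directions. Of 6 members tested, 4 were at least 2-fold higher in cornea and 2 lower, with a median log2 fold change of 5.48. T and NK cell markers summed to at most 0.967 CPM and mast cell and basophil markers to at most 1.73 CPM in any library, and Cd3g and Ncr1 were at 0 in all 8. Sums for endothelium were at most 11.1 CPM in cornea, and those for Schwann cells and melanocytes at most 2.23. B cell markers summed to 19.2 to 25.4 CPM in marrow and at most 4.46 in cornea, most of it Cd79b (2.48 ± 0.319 against 22.5 ± 3.01 CPM). Megakaryocyte markers reached at most 11.6 CPM in cornea, and progenitor markers at most 28.1 in marrow. What these cells' RNA adds to the differences described below was not tested.

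**Figure D2:**
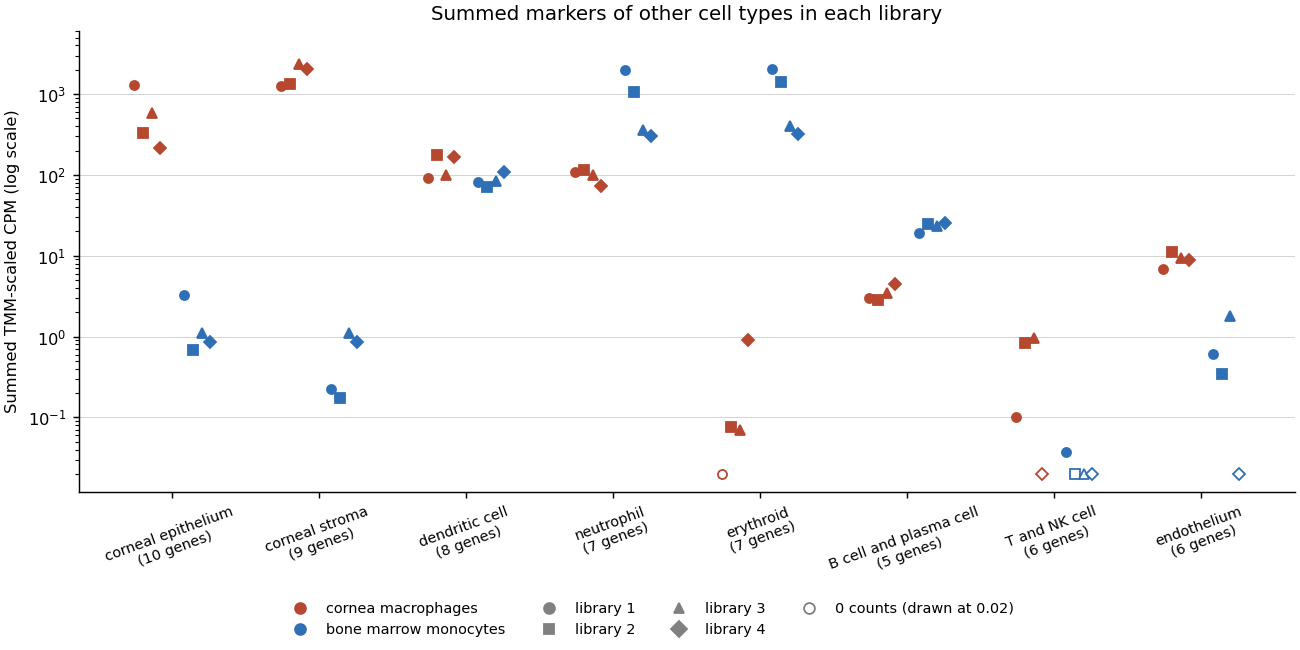
Summed CPM of marker genes of other cell types (log scale) in each library; colours mark the population and symbols the library. Epithelial and stromal sums lie above 200 CPM in cornea and below 4 CPM in marrow, and neutrophil and erythroid sums are highest in marrow libraries 1 and 2.

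Cornea macrophages carried the transcription factors of tissue macrophages. Spic, the ETS factor known from iron-recycling macrophages, was at 296, 285, 318 and 329 CPM in cornea and 2.63, 1.89, 1.57 and 0.122 CPM in marrow (log2 fold change 7.57 ± 0.47, edgeR adjusted p = 1.3e-07). All 5 members of the group of MAF factors, their MITF relatives and Spic were higher, among them Maf (68.8 ± 25.8 against 9.84 ± 2.22 CPM, log2 fold change 2.79), which helps to hold macrophages in their mature state. Among nuclear receptors, the sterol sensor Nr1h3 (LXR alpha) stood at 47.1 ± 14.2 against 0.905 ± 0.395 CPM and the fatty acid sensor Pparg at 159 ± 32.2 against 9.13 ± 1.64 CPM (log2 fold changes 5.63 and 4.12). Id3, an inhibitor of helix-loop-helix factors, stood at 75.4 ± 19.1 against 0.822 ± 0.479 CPM, and the repressors Bhlhe40 at 252 ± 11.0 against 7.32 ± 2.99 CPM and Bhlhe41 at 79.6 ± 27.3 against 0.115 ± 0.0538 CPM. The largest adjusted p of these 7 genes was 7.7e-06. Of 18 members tested, 12 were called higher and 3 lower (Id1, Rxra and Nfatc1), against 34.1% and 31.4% of all genes. At least 2-fold, 11 were higher and 3 lower. The median log2 fold change was 2.84 against -0.01 for all genes.

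Factors of progenitors and monocytes were split. Of 20, 9 were called higher and 9 lower in cornea, against 34.1% and 31.4% of all genes. At least 2-fold, 6 were higher and 9 lower, against 26.7% and 22.1% of all genes. Myb, needed by dividing progenitors, was at 18.6, 11.1, 14.7 and 13.4 CPM in marrow and 0, 0.827, 0.207 and 0 CPM in cornea (log2 fold change -5.75 ± 0.74, edgeR adjusted p = 4.6e-05). The granulocyte factors Gfi1 (0.0940 ± 0.188 against 2.01 ± 1.20 CPM) and Cebpe (0.376 ± 0.276 against 3.73 ± 1.85 CPM) were lower too, and Gfi1 was not called with marrow libraries 3 and 4 only. The monocyte factors Irf8 (164 ± 31.3 against 333 ± 45.1 CPM), Klf4 (32.4, 25.8, 34.5 and 31.2 CPM in cornea against 53.5, 84.6, 63.2 and 66.6 CPM in marrow) and Klf2 (28.6 ± 4.00 against 165 ± 50.0 CPM) were lower in cornea, with log2 fold changes of -1.02, -1.11 and -2.53, and Irf5, which drives inflammatory cytokines, stood at 151 ± 23.4 against 526 ± 30.9 CPM. Spi1 (PU.1), the master factor of myeloid cells, was higher at 498 ± 55.7 against 223 ± 24.3 CPM (log2 fold change 1.16), as were Runx1 (374 ± 58.8 against 69.1 ± 5.52 CPM) and Cebpb (1105 ± 174 against 361 ± 88.9 CPM, log2 fold change 1.61). Cebpa had 43.2 ± 13.1 against 23.6 ± 4.13 CPM with overlapping libraries, and lost its call with total counts, with lane as a covariate and within either lane.

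Most receptors and secreted products of resident and border macrophages were higher in cornea. Mrc1, the mannose receptor CD206, was at 1405, 1291, 1511 and 1346 CPM in cornea and 18.4, 19.6, 15.6 and 18.9 CPM in marrow (log2 fold change 6.26 ± 0.14, edgeR adjusted p = 3.6e-10). Pf4, a platelet-type chemokine also made by border macrophages, was at 832, 817, 803 and 696 CPM against 0.751, 0.429, 0.236 and 0.122 CPM (log2 fold change 10.81 ± 0.33, edgeR adjusted p = 1.5e-09). Every cornea library exceeded every marrow library for both. The hemoglobin receptor Cd163 stood at 149 ± 40.7 against 3.35 ± 1.42 CPM, the scavenger receptor Stab1 at 571 ± 126 against 1.54 ± 1.25 CPM, the folate receptor Folr2 at 47.7 ± 11.6 against 0.0844 ± 0.169 CPM and the hyaluronan receptor Lyve1 at 7.02 ± 2.58 against 0.113 ± 0.225 CPM. Among secreted factors, Apoe, a lipid carrier, stood at 20347 ± 3176 against 1085 ± 278 CPM, Igf1 at 172 ± 34.8 against 1.69 ± 0.148 CPM and Gas6, a bridge to dying cells, at 272 ± 49.0 against 0.520 ± 0.600 CPM. Ms4a7 stood at 1349 ± 71.0 against 5.70 ± 0.919 CPM and the reductase Cbr2 at 159 ± 31.5 against 6.10 ± 0.936 CPM. The lectin gene Clec10a (18.2 ± 4.51 against 26.0 ± 1.40 CPM, log2 fold change -0.51) and the prostaglandin-degrading enzyme gene Hpgd (80.4 ± 4.71 against 129 ± 27.3 CPM, log2 fold change -0.68) were lower in cornea, with no overlap. The call of Clec10a was lost without any 1 library other than cornea library 4 (log2 fold changes -0.39 to -0.56), with DESeq2 size factors, a minimum count of 50, all 16 libraries, lane as a covariate, within lane 3 and with marrow libraries 3 and 4 only, and that of Hpgd within lane 2. Of 20 members tested, 18 were called higher and 2 lower, against 34.1% and 31.4% of all genes. At least 2-fold, 17 were higher and 0 lower, and the median log2 fold change was 5.18.

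Genes of classical monocytes were lower in cornea with 2 exceptions. Ccr2, the receptor that draws monocytes out of marrow, was at 1831, 2066, 2537 and 2738 CPM in marrow and 40.3, 58.5, 46.1 and 50.1 CPM in cornea (log2 fold change -5.55 ± 0.20, edgeR adjusted p = 3.2e-09). No cornea library came near the marrow range. The fibronectin gene Fn1 stood at 71.2 ± 16.4 against 5807 ± 638 CPM (log2 fold change -6.35), the versican gene Vcan at 1.20 ± 0.921 against 58.2 ± 16.1 CPM, the coagulation factor gene F13a1 at 689.6 ± 246 against 5442 ± 1038 CPM (log2 fold change -2.98), and Plac8 at 6.36 ± 5.94 against 882 ± 111 CPM. The chitinase-like gene Chil3 stood at 0.499 ± 0.412 against 4741 ± 1083 CPM. Haptoglobin, Hp, had 1 read in all cornea libraries together against 901, 846, 899 and 1032 CPM in marrow, a ratio of 50129.9 (95% counting interval 8997 to 1980060). Cd177, a neutrophil surface protein gene, was at 517 CPM in marrow with 3 cornea counts, a ratio of 9448 (95% counting interval 3233 to 45819). Of 21 members, 19 were at least 2-fold lower and 2 at least 2-fold higher (median -5.04). The exceptions were Clec4e, the Mincle receptor for damaged cells, at 1474 ± 136 against 21.4 ± 4.55 CPM, and Thbs1 (thrombospondin) at 645 ± 313 against 53.8 ± 14.7 CPM.

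**Figure D3:**
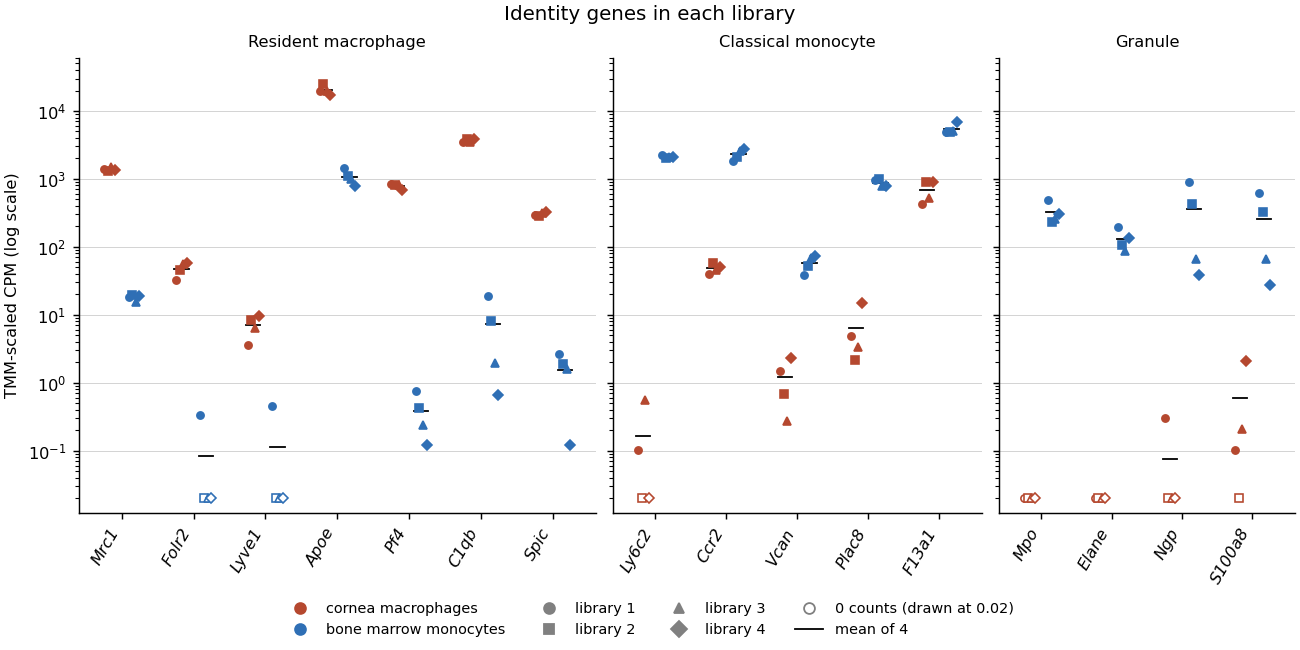
CPM (log scale) of resident macrophage, classical monocyte and granule genes in each library; open symbols are 0 counts and black bars are means of 4. The populations do not overlap for any gene shown, and Mpo and Elane are at 0 in all 4 cornea libraries.

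Granule genes had the lowest median log2 fold change of the 32 lists. Mpo, myeloperoxidase, was at 490.1, 229, 256 and 307 CPM in marrow libraries 1 to 4 and at 0 in cornea, at least 6448-fold lower in cornea against 3 counts over the cornea group. Elane, neutrophil elastase, was at 194, 105, 88.0 and 134 CPM in marrow and at 0 in cornea, at least 2602-fold lower in cornea. Library 1 was the highest of the 4 for both. Ngp, a secondary granule protein, was at 897, 420.2, 66.8 and 39.0 CPM in marrow, with libraries 1 and 2 above 3 and 4 as in the neutrophil sums above. Ngp had 3 counts in cornea, a ratio of 8126 (95% counting interval 2780.3 to 39406). Ctsg was at 0 in cornea and at 17.3 CPM in marrow, at least 345-fold lower in cornea, and Prtn3 stood at 0.169 ± 0.338 against 47.1 ± 15.4 CPM. The calcium-binding pair S100a8 and S100a9 stood at 0.604 ± 1.01 against 258 ± 273 CPM and 0.386 ± 0.405 against 219 ± 246 CPM, and were not called by limma-voom, while Mmp8 stood at 0.300 ± 0.423 against 250.2 ± 24.6 CPM. All 16 of 16 members tested were at least 2-fold lower, with a median log2 fold change of -10.86, or -9.49 with the 6 genes at 0 in cornea set to their bounds. These 6 passed the filter on low counts through marrow alone, so their direction was fixed once they were tested. Members with few cornea reads, such as Ngp and Mmp8, also needed marrow to pass it, so this count of members is not read as support. With marrow libraries 3 and 4 only, 15 members were at least 2-fold lower.

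Chemokines that attract neutrophils were among the largest differences. Cxcl1, Cxcl2 and Cxcl3, ligands of the neutrophil receptor CXCR2, lie in the same region of chromosome 5. Their GRCm38 positions are Cxcl3 90786103 to 90789600, Cxcl1 90891241 to 90893115 and Cxcl2 90903871 to 90905938 (GENCODE vM21, all protein coding, plus strand). The longest run of letters that the 3 promoters share holds GGGAATTTCC, letters that NF-kappaB binds, which makes them the sequences to show, next to that of Nfkbia, the NF-kappaB inhibitor that NF-kappaB itself induces. The stretches are the 120 bases before the RefSeq gene start (GRCm38.p6), 5′ to 3′ on the gene's strand, with matches on either strand in capitals.
Cxcl1 (chr5:90891125-90891244, plus): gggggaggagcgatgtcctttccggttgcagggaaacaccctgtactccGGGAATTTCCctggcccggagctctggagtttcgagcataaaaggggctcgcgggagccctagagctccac
Cxcl2 (chr5:90903779-90903898, plus): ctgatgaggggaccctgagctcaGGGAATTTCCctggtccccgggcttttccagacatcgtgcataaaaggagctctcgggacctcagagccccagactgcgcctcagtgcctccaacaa
Cxcl3 (chr5:90785981-90786100, plus): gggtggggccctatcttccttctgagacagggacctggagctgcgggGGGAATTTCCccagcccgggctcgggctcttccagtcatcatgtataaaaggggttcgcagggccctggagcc
Nfkbia (chr12:55492648-55492767, minus): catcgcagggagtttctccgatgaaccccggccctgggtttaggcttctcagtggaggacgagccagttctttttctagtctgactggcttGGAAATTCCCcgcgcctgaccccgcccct
The match began 71, 97, 73 and 29 bases before the start, and in Nfkbia it lay on the other strand. Over the 250 bases before the start, GGGAATTTCC or its reverse complement was in 23 of 27025 promoters (0.0851%). Of the 11 tested genes among them, 7 were at least 2-fold higher in cornea and 1 lower. The 4 genes shown are among these 7 and the letters were taken from 3 of them, so nothing is read from this count. A match is a description of the sequence and shows no binding.

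Cxcl2 was at 16921, 16731, 16309.8 and 12627 CPM in cornea libraries 1 to 4 and at 2.36, 1.03, 0.0785 and 0.243 CPM in marrow (log2 fold change 13.83 ± 0.68, edgeR adjusted p = 2.5e-08). Cxcl1 was at 6671, 5954, 3962 and 4406 CPM in cornea and at 0 in every marrow library, at least 114302-fold higher in cornea against 3 counts over the marrow group. Cxcl3 was at 1253, 1171, 1152 and 577 CPM and also at 0 in marrow, at least 22482-fold higher in cornea. Cornea library 4 was the lowest of the 4 for Cxcl2 and Cxcl3 and second lowest for Cxcl1, and was still far above any marrow library. Per kilobase of annotated exon, mean levels in cornea were 7566 CPM for Cxcl2, 2799 for Cxcl1 and 297 for Cxcl3. Cxcl5 of the same group was at 23.1 CPM in cornea and 0 in marrow. Cxcl16, a membrane-bound ligand for CXCR6, stood at 1844 ± 154 against 2.52 ± 0.979 CPM and the interferon-inducible Cxcl10 at 372 ± 35.7 against 30.2 ± 5.76 CPM (log2 fold changes 9.52 and 3.62). Of 11 CXC genes tested, 9 were at least 2-fold higher and 0 lower. The median log2 fold change was 9.52, or 8.32 with 5 genes at 0 in marrow set to their bounds. These 5 passed the filter on low counts through cornea alone, so their direction was fixed once they were tested. Members with few marrow reads, such as Cxcl2, also needed cornea to pass it, so this count of members is not read as support.

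CC chemokines followed, with Ccl6 as the exception. Ccl2 and Ccl7, ligands of the CCR2 receptor that marrow monocytes carried, stood at 1571 ± 611 against 6.60 ± 2.00 CPM (log2 fold change 7.88) and, for Ccl7, at 1201, 1511, 1542 and 2951 CPM in cornea against 0.150, 0, 0 and 0.243 CPM in marrow. Ccl12 and Ccl8, of the same gene cluster, stood at 778 ± 403 against 0.114 ± 0.0893 CPM and 16.3 ± 2.93 against 0.0737 ± 0.124 CPM. Ccl3 and Ccl4, the macrophage inflammatory proteins, stood at 3027 ± 277 against 14.9 ± 8.45 CPM and 3909.6 ± 610.5 against 1.81 ± 0.202 CPM. Ccl9 was higher at 1366 ± 202 against 579 ± 125 CPM (log2 fold change 1.24), whereas Ccl6 was at 74.5, 80.3, 77.6 and 74.1 CPM in cornea and 1004, 881, 887 and 1022 CPM in marrow (log2 fold change -3.63 ± 0.12, edgeR adjusted p = 1.9e-09). Of 13 tested, 11 were at least 2-fold higher and 1 lower, and 1 gene at 0 in marrow could only be higher once tested. Ccl22, a dendritic cell chemokine, was at 73.1, 267, 75.5 and 225 CPM in cornea libraries 1 to 4, higher in libraries 2 and 4 than in libraries 1 and 3, as were the dendritic cell marker sums. Ccr7, Il12b and Marco, given below, were also higher in libraries 2 and 4. Ccr7 is one of the dendritic cell markers summed, so its likeness to the sums is partly built in. The part of dendritic cells in the values of these genes was not tested.

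Receptors for chemoattractants were divided. Besides Ccr2, Cx3cr1, the fractalkine receptor, was lower at 89.0 ± 9.68 against 377 ± 119 CPM (log2 fold change -2.08), and so was Ltb4r1, the leukotriene B4 receptor, at 0.501 ± 0.409 against 84.0 ± 5.17 CPM. The complement receptors C5ar1 and C3ar1 were higher, C5ar1 at 2846 ± 504 against 23.5 ± 5.24 CPM and C3ar1 at 2783 ± 376 against 10.8 ± 1.31 CPM (log2 fold changes 6.91 and 8.02). Ccr1 (410.2 ± 119 against 98.0 ± 18.6 CPM), the chemerin-binding Ccrl2 (969 ± 67.3 against 7.14 ± 1.86 CPM) and Cxcr4 (54.1 ± 9.16 against 18.4 ± 9.17 CPM) were higher too, and Cxcr4 lost its call within lane 2. S1pr1, the sphingosine phosphate receptor, stood at 107 ± 20.3 against 0.0429 ± 0.0857 CPM. Ccr7, which guides cells to lymph nodes, was at 7.55, 43.2, 4.08 and 52.5 CPM in cornea libraries 1 to 4 and 0 in marrow, with libraries 2 and 4 again above libraries 1 and 3. Cxcr2 was low in both populations (0.226 ± 0.451 against 2.28 ± 2.32 CPM) with overlapping libraries, and leaving out 1 of 5 libraries (cornea 1, 3 or 4, marrow 1 or 2) ended its call at log2 fold changes of -2.29 to -3.44, as did lane 2 alone and marrow libraries 3 and 4 only. Fpr1 was not called (13.4 ± 10.5 against 6.00 ± 1.94 CPM). The count was 9 at least 2-fold higher and 5 lower of 17, and Ccr7, at 0 in marrow, could only be higher once tested.

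Most cytokine genes were higher in cornea, while some cytokine receptor and inflammasome genes were lower. Il1b was at 1663, 1788, 889 and 837 CPM in cornea and 3.00, 1.80, 2.12 and 0.730 CPM in marrow (log2 fold change 9.35 ± 0.47, edgeR adjusted p = 2.8e-08). Tnf was at 1817, 1902, 1386 and 1186 CPM in cornea and 1.46, 1.97, 1.34 and 0.790 CPM in marrow (log2 fold change 10.16 ± 0.30, edgeR adjusted p = 1.4e-09). The lowest cornea library was far above the highest marrow library in both genes, and cornea libraries 1 and 2 were above 3 and 4. Il1a had 2 counts in marrow against 1567 CPM in cornea, a ratio of 52721 (95% counting interval 14594 to 435341). The anti-inflammatory members were high as well. The receptor antagonist Il1rn stood at 5882 ± 417 against 21.3 ± 5.38 CPM, and Il10 was at 258, 283, 314 and 480.0 CPM in cornea and 0 in marrow, at least 7807-fold higher in cornea. Il6 stood at 101 ± 32.6 against 0.0384 ± 0.0444 CPM, Osm at 338 ± 47.0 against 4.20 ± 1.29 CPM, and Il12b was at 106, 187, 51.7 and 245 CPM in cornea libraries 1 to 4 and 0 in marrow, at least 3457-fold higher in cornea. Of 25 members, 18 were at least 2-fold higher and 3 lower. Among them, 3 genes at 0 in marrow, Il10 and Il12b included, could only be higher once tested. Il18, of the IL-1 family, was not called (22.3 ± 6.32 against 18.9 ± 3.04 CPM). Among receptors, Il6ra (62.3 ± 15.1 against 207 ± 24.0 CPM), Tnfrsf1a (92.1 ± 8.21 against 173 ± 17.6 CPM) and Il10ra (132 ± 40.3 against 230.4 ± 7.63 CPM) were lower in cornea. The machinery that matures IL-1 went both ways. The sensor Nlrp3 (1079.9 ± 90.9 against 31.1 ± 5.03 CPM) and Casp4 (249 ± 33.8 against 26.7 ± 2.47 CPM) were higher, while the adaptor Pycard (11.3 ± 1.38 against 109.9 ± 13.5 CPM), Gsdmd (37.8 ± 5.45 against 94.1 ± 5.18 CPM) and Casp1 (60.4 ± 12.7 against 88.5 ± 6.98 CPM) were lower in cornea, with log2 fold changes of -3.28, -1.31 and -0.55. Casp1 was not called within lane 2 or with marrow libraries 3 and 4 only. The decoy receptor Il1r2 stood at 14.3 ± 9.17 against 3.58 ± 2.09 CPM with overlapping libraries, and was not called with total counts or within lane 2.

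All 16 of 16 NF-kappaB subunits and feedback inhibitors were at least 2-fold higher in cornea. Among subunits, Nfkb1 stood at 835 ± 141 against 111 ± 5.76 CPM and Rel at 669 ± 103 against 105 ± 28.6 CPM (log2 fold changes 2.91 and 2.67). The inhibitor Nfkbia, whose promoter is shown above, was at 2439, 2659, 2107 and 2446 CPM in cornea and 375, 152, 212 and 162 CPM in marrow (log2 fold change 3.42 ± 0.28, edgeR adjusted p = 1.3e-06). Nfkbiz, a nuclear inhibitor that also activates Il6, stood at 1172 ± 72.6 against 14.6 ± 4.25 CPM, the ubiquitin-editing enzyme gene Tnfaip3 (A20) at 2683 ± 265 against 37.2 ± 5.09 CPM, its partner gene Tnip3 at 701 ± 213 against 6.37 ± 2.09 CPM, the RNase gene Zc3h12a at 139 ± 18.9 against 3.95 ± 1.37 CPM and Traf1 at 517 ± 35.1 against 1.80 ± 1.24 CPM.

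Most immediate-early genes were higher in cornea. A warm digestion can induce such genes, and its part in these differences was not tested. Egr1 was at 513, 783, 958 and 960.5 CPM in cornea and 0.638, 0, 0.471 and 0.912 CPM in marrow (log2 fold change 10.49 ± 0.45, edgeR adjusted p = 1e-08). Atf3 stood at 2165 ± 578 against 43.0 ± 5.16 CPM, Junb at 2003 ± 567 against 143 ± 57.4 CPM, Jun at 399 ± 86.4 against 49.1 ± 29.0 CPM, Nr4a1 at 455 ± 70.2 against 51.9 ± 23.9 CPM and the RNA-decay gene Zfp36 at 2045 ± 99.1 against 132 ± 70.2 CPM. Dusp1, a phosphatase of MAP kinases, was at 1668, 1972, 1525 and 2201 CPM in cornea and 225, 31.1, 19.2 and 11.7 CPM in marrow, where library 1 stood alone. Fos was at 188, 203, 359 and 202 CPM in cornea and 236, 75.2, 24.0 and 18.2 CPM in marrow. Its populations overlapped and it was not called (log2 fold change 1.42 ± 0.67, edgeR adjusted p = 0.083); without marrow library 1 its log2 fold change was 2.62 (adjusted p = 0.00098). Ier2 was called with overlapping libraries (210.5 ± 40.1 against 138 ± 35.4 CPM), its log2 fold change was -0.14 with total counts, and it was not called without marrow library 3 or 4 (log2 fold changes 0.48 to 0.51), with upper-quartile factors, with all 16 libraries or within lane 2. Of 22 members, 19 were at least 2-fold higher and 0 lower.

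**Figure D4:**
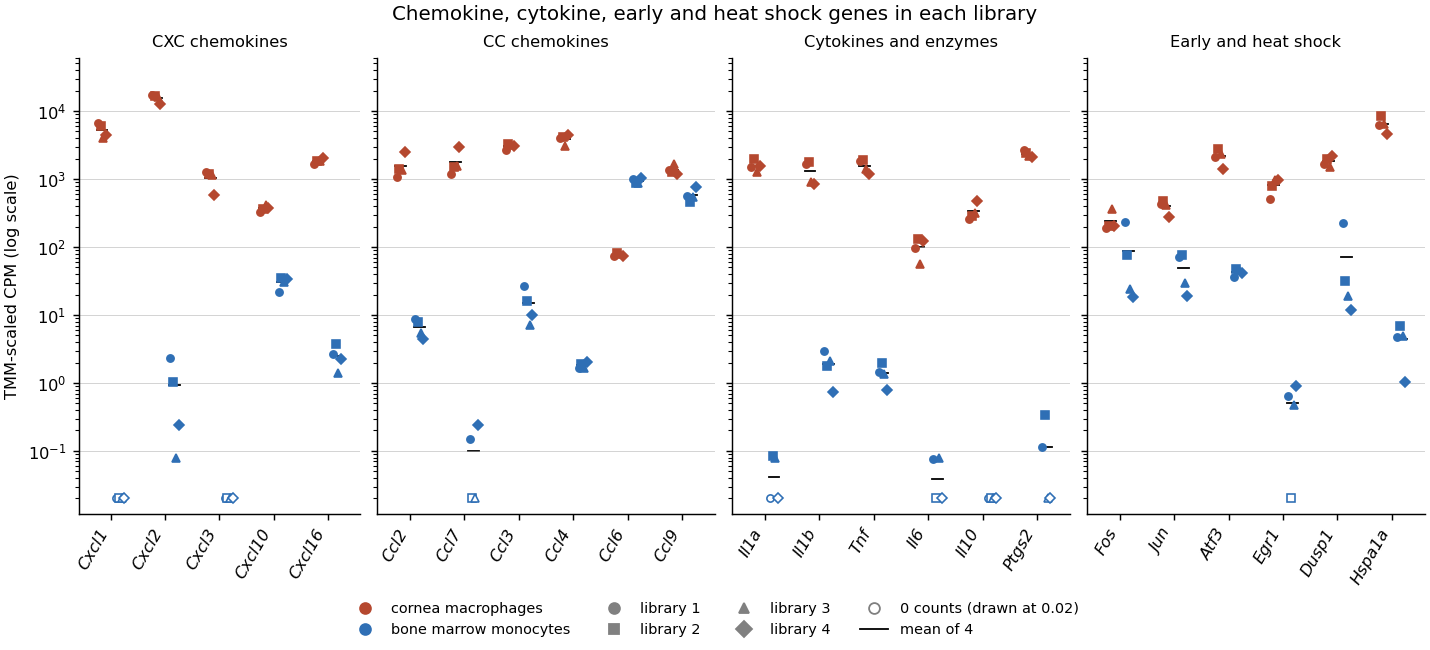
CPM (log scale) of chemokine, cytokine, immediate-early and heat shock genes in each library; open symbols are 0 counts and black bars are means of 4. Cxcl1 and Cxcl3 are at 0 in all marrow libraries, Ccl6 is higher in marrow, and Fos and Dusp1 are highest in marrow library 1 among the marrow libraries.

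Heat shock genes were higher in cornea as well. Hspa1a and Hspa1b, the inducible HSP70 pair on chromosome 17, are shown because their promoters are nearly the same: 119 of the 120 bases before the start were identical, and reads of the 2 genes may not be told apart either. Capitals mark GAANNTTC, part of the element that heat shock factor binds.
Hspa1a (chr17:34972157-34972276, minus): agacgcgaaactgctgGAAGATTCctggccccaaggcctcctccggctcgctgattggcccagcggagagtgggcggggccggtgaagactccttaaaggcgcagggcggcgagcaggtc
Hspa1b (chr17:34959239-34959358, minus): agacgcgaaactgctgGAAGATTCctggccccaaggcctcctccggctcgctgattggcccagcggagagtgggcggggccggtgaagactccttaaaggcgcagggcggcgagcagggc
These letters, which read the same on both strands, were in 6.78% of all promoters (250 bases before the start), and of 455 tested genes with them 119 were at least 2-fold higher and 111 lower, which is close to the shares among all genes. Hspa1a was at 6183, 8326, 6507 and 4622 CPM in cornea and 4.80, 6.86, 4.87 and 1.03 CPM in marrow (log2 fold change 10.53 ± 0.53, edgeR adjusted p = 3e-08), and Hspa1b at 7106, 9941, 7206 and 5208 and 10.6, 10.6, 6.91 and 2.01 CPM. Both were highest in cornea library 2 and lowest in cornea library 4, and neither overlapped with marrow. The co-chaperone Dnajb1 stood at 336 ± 81.0 against 47.7 ± 11.1 CPM, Hsph1 at 1717 ± 307 against 35.7 ± 7.61 CPM and Hsp90aa1 at 881 ± 153 against 37.8 ± 9.31 CPM. Of 15 members, 14 were at least 2-fold higher, also in other compartments (Hspa5 of the endoplasmic reticulum at 8277 ± 3202 against 915 ± 93.4 CPM). An inducible member at 0 in marrow could only be higher once tested. The part of the digestion in these differences was not tested.

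Enzymes of lipid mediators and of arginine and itaconate were mostly higher. Ptgs2, the inducible cyclooxygenase, was at 2649, 2400.4, 2167 and 2078 CPM in cornea and 0.113, 0.343, 0 and 0 CPM in marrow (log2 fold change 14.34 ± 0.41, edgeR adjusted p = 1.1e-09). Hpgds, the prostaglandin D synthase, stood at 963 ± 61.0 against 0.631 ± 1.18 CPM, and Ptges, the prostaglandin E synthase, at 44.9 ± 11.9 against 2.92 ± 1.35 CPM. The constitutive Ptgs1 stood at 85.8 ± 4.95 against 50.5 ± 10.8 CPM and Alox5, the 5-lipoxygenase, at 56.5 ± 12.8 against 30.4 ± 6.15 CPM; neither was called with total counts or within lane 2. Alox5ap, the partner of 5-lipoxygenase, was lower at 202 ± 15.9 against 874 ± 54.2 CPM (log2 fold change -2.12). Acod1, listed under its older symbol Irg1, makes itaconate and stood at 913 ± 195 against 0.417 ± 0.477 CPM (log2 fold change 11.25). Odc1, of polyamine synthesis, stood at 297 ± 50.0 against 3.86 ± 0.425 CPM. Arg1 was low at 2.50 ± 1.36 against 0.248 ± 0.268 CPM and not called within lane 2, and Nos2, at 2.35 CPM in cornea, did not pass the filter on low counts.

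Class II chains and co-stimulatory genes were higher in cornea, and the loading chaperones were divided. The promoters of H2-Aa and H2-Eb1 are shown over the 100 bases before the start because class II promoters are known to carry a CCAAT box. Capitals mark each match to these letters on either strand, 1 in H2-Aa and 2 in H2-Eb1, and do not tell which match is that box.
H2-Aa (chr17:34287824-34287923, minus): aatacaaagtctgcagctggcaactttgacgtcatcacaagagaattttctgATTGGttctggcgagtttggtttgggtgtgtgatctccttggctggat
H2-Eb1 (chr17:34305767-34305866, plus): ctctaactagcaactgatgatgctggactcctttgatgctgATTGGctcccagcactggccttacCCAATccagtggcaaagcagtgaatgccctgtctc
CCAAT on either strand is common, in 34.5% of promoters (250 bases before the start). Of 3348 tested genes with it 816 were at least 2-fold higher and 874 lower, close to the 26.7% and 22.1% of all genes. H2-Aa was at 2514, 2767, 1931 and 2741 CPM in cornea and 65.3, 69.5, 38.9 and 36.1 CPM in marrow (log2 fold change 5.57 ± 0.27, edgeR adjusted p = 2.3e-08). H2-Ab1 and H2-Eb1 stood at 2418 ± 791 against 67.8 ± 31.6 CPM and 1330.4 ± 320.4 against 20.5 ± 8.26 CPM, and Cd74, the invariant chain, at 16548 ± 3513 against 492 ± 101 CPM (log2 fold changes 5.16, 6.01 and 5.07). Ciita, their master regulator, stood at 20.7 ± 5.14 against 5.37 ± 0.659 CPM (log2 fold change 1.95). Among loading chaperones H2-DMa was lower at 76.8 ± 16.2 against 161 ± 12.5 CPM (log2 fold change -1.07), and H2-DMb1 (98.5 ± 25.2 against 67.6 ± 8.00 CPM) was called higher with overlapping libraries, its log2 fold change was -0.20 with total counts, and it was not called without cornea library 1 or 2 or marrow library 1, 3 or 4 (log2 fold changes 0.43 to 0.56), with upper-quartile factors, within lane 2 or with marrow libraries 3 and 4 only. All 6 co-stimulatory genes tested were at least 2-fold higher, including Cd86 (1603 ± 322 against 55.4 ± 5.63 CPM), Cd80 (28.3 ± 7.51 against 4.50 ± 1.24 CPM) and the checkpoint ligand Cd274 (290.0 ± 91.1 against 6.24 ± 1.47 CPM). The list held 12 at least 2-fold higher and 1 lower of 18.

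Complement differed by component. C1qb was at 3443, 3808, 3496 and 3889 CPM in cornea and 19.0, 8.06, 1.96 and 0.669 CPM in marrow (log2 fold change 8.89 ± 0.87, edgeR adjusted p = 5.3e-06), and C1qa and C1qc stood at 576 ± 41.2 against 1.93 ± 2.23 CPM and 1719 ± 198 against 4.23 ± 4.28 CPM. The 4 marrow values spread widely, with libraries 1 and 2 above 3 and 4. C3 was lower in cornea, at 72.2, 74.4, 91.1 and 38.9 CPM against 1395, 1484, 1481 and 1674 CPM in marrow (log2 fold change -4.45 ± 0.25, edgeR adjusted p = 5.6e-08). Properdin, Cfp, stood at 504 ± 114 against 272 ± 17.6 CPM and was not called with total counts. Of 14 members, 11 were at least 2-fold higher and 2 lower.

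Most genes for uptake of dying cells and modified lipids were higher in cornea. Of 19 tested, 14 were called higher and 4 lower, against 34.1% and 31.4% of all genes. Of the 8 scavenger receptors among them, 5 were called higher and 3 lower. Cd36, which binds oxidised lipid, was at 1735, 1596, 2248 and 1540.5 CPM in cornea and 10.9, 11.7, 5.97 and 4.20 CPM in marrow (log2 fold change 7.76 ± 0.36, edgeR adjusted p = 1.7e-08). Axl stood at 1102 ± 94.4 against 93.3 ± 8.89 CPM, Mertk at 44.7 ± 12.5 against 2.42 ± 0.477 CPM, Trem2 at 171 ± 10.6 against 25.1 ± 3.55 CPM and Msr1 at 483 ± 62.5 against 245 ± 16.2 CPM, and Msr1 was not called with total counts. Scarb1, the HDL receptor, was lower at 24.2 ± 9.48 against 273 ± 9.34 CPM (log2 fold change -3.49). Marco, low at 1.71, 8.87, 1.87 and 8.74 CPM in cornea libraries 1 to 4 and 0 in marrow, was again higher in libraries 2 and 4. The list held 12 at least 2-fold higher and 2 lower of 19, and Marco, at 0 in marrow, could only be higher once tested.

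Lysosomal proteases differed one by one. Ctsl was at 1279.6, 1221, 1021 and 756 CPM in cornea and 41.7, 32.1, 46.2 and 40.6 CPM in marrow (log2 fold change 4.74 ± 0.21, edgeR adjusted p = 1.1e-08), and Ctsb and Ctsd stood at 20593 ± 4148 against 2353 ± 136 CPM and 4571 ± 615 against 387 ± 61.7 CPM. Ctss was called higher at 2031 ± 47.5 against 1461 ± 51.4 CPM. With total counts it was called lower (log2 fold change -0.27), and it was not called within lane 2. Cd63, a lysosomal tetraspanin, stood at 449.5 ± 80.4 against 1.86 ± 1.73 CPM, Cd68 at 2599 ± 415 against 401 ± 26.9 CPM, Lamp1 at 3353 ± 59.8 against 1375 ± 96.7 CPM and the galactosidase Gla at 742 ± 177 against 13.1 ± 3.16 CPM. Psap, which encodes saposins, was lower at 1784 ± 725 against 4422 ± 549.8 CPM (log2 fold change -1.31), as was Ctsh (310.4 ± 32.7 against 627 ± 39.6 CPM), whereas Ctsc was not called (1222 ± 124 against 1348 ± 299 CPM). The list held 12 at least 2-fold higher and 3 lower of 25, with a median of 0.92, or 0.18 with total counts.

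Of 9 genes of lipid transport and storage, 6 were at least 2-fold higher in cornea and 1 lower. Abca1, the cholesterol exporter, was at 886, 572, 691 and 479 CPM in cornea and 5.70, 2.06, 4.56 and 9.91 CPM in marrow (log2 fold change 6.86 ± 0.43, edgeR adjusted p = 1.4e-07). Its partner Abcg1 was not called (60.7 ± 6.13 against 67.7 ± 13.5 CPM, log2 fold change -0.16). Plin2, a lipid droplet coat, stood at 2931 ± 282 against 156 ± 11.6 CPM, and the fatty acid carriers Fabp4 and Fabp5 at 122 ± 14.2 against 0.219 ± 0.175 CPM and 39.9 ± 8.81 against 9.55 ± 1.56 CPM. Ch25h, which makes 25-hydroxycholesterol, was at 155 CPM in cornea and 0 in marrow, at least 3501-fold higher in cornea. Lpl, lipoprotein lipase, was lower at 122 ± 15.9 against 385 ± 53.3 CPM (log2 fold change -1.66). The whole list, which also holds sterol and fatty acid synthesis, had 13 at least 2-fold higher and 3 lower of 21. Sterol synthesis had 6 higher and 0 lower of 7, with Ch25h, at 0 in marrow, among them. Fatty acid synthesis had 1 higher and 2 lower of 5. Ch25h could only be higher once tested.

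No member of the iron and heme list was called lower, against 31.4% of all genes. Hmox1, heme oxygenase, was at 10876, 19512, 26874 and 14984 CPM in cornea and 118, 91.8, 114 and 122 CPM in marrow (log2 fold change 7.34 ± 0.32, edgeR adjusted p = 1.1e-08). Fth1, the ferritin heavy chain, was at 28842, 26330, 26751 and 20744 CPM against 888, 845, 614 and 554 CPM (log2 fold change 5.15 ± 0.21, edgeR adjusted p = 8.4e-09), and the light chain Ftl1 stood at 2945 ± 421 against 324 ± 129.9 CPM. Cornea values of Hmox1 varied more between libraries, lowest in library 1 and highest in library 3. Blvrb stood at 141 ± 15.0 against 24.8 ± 5.42 CPM, the metal transporters of phagosomes and endosomes Slc11a1 and Slc11a2 at 831 ± 137 against 157 ± 8.09 CPM and 954 ± 219.6 against 14.8 ± 2.13 CPM, and the transferrin receptor Tfrc at 41.1 ± 8.19 against 8.66 ± 3.80 CPM. The exporter Slc40a1 (ferroportin) was at 78.6, 147, 132 and 108 CPM in cornea and 59.3, 16.7, 6.28 and 3.16 CPM in marrow; marrow library 1 was high, and the call was lost within lane 2, where it is the only marrow library. The list held 12 at least 2-fold higher and 0 lower of 15.

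Most enzymes that cut matrix were higher in cornea. Mmp14, a membrane collagenase, was at 552, 442, 447 and 529 CPM in cornea and 0.713, 0.857, 0 and 0.608 CPM in marrow (log2 fold change 9.74 ± 0.38, edgeR adjusted p = 6e-09). Mmp12 and Mmp13 stood at 217 ± 76.3 against 0.0563 ± 0.113 CPM and 705 ± 220.5 against 0.0563 ± 0.113 CPM, Plau (urokinase) at 459.6 ± 144 against 2.12 ± 2.21 CPM, its receptor gene Plaur at 2764 ± 1417 against 139 ± 27.0 CPM, the inhibitor gene Timp2 at 267 ± 61.0 against 26.1 ± 2.23 CPM and Serpinb2 at 25.0 ± 9.49 against 0.169 ± 0.290 CPM. Mmp8 and Mmp9 (1.86 ± 0.662 against 18.7 ± 22.9 CPM), proteases of neutrophil granules, were lower, and Mmp9 overlapped and was not called by limma-voom, within lane 3 or with marrow libraries 3 and 4 only. The list held 14 at least 2-fold higher and 2 lower of 16. The median log2 fold change was 7.57, or 6.58 with 3 inhibitor genes at 0 in marrow set to their bounds. These 3 could only be higher once tested.

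Among growth factors of repair, the EGF family ligand Areg was at 223, 303, 262 and 289 CPM in cornea and 0 in marrow, at least 6139-fold higher in cornea. Its relative Hbegf stood at 284 ± 111 against 0.0804 ± 0.115 CPM. Ereg, another relative, stood at 2.75 ± 3.42 against 0 CPM and did not pass the filter on low counts. Gdf15, a stress-induced member of the TGF-beta family, was at 1165, 846, 990.0 and 1335 CPM in cornea with 3 counts in marrow, a ratio of 24564 (95% counting interval 8405 to 119117). Vegfa was at 298, 136, 139 and 123 CPM in cornea, with library 1 above the others, and 1.73, 0.429, 0 and 0.608 CPM in marrow (log2 fold change 7.70 ± 0.60, edgeR adjusted p = 8e-07). Pdgfa and Pdgfb stood at 305 ± 36.5 against 0.184 ± 0.213 CPM and 106 ± 26.5 against 0.770 ± 0.229 CPM, and Spp1 (osteopontin) at 1040.2 ± 168 against 3.40 ± 1.25 CPM. Tgfb1 was higher at 356 ± 68.6 against 137 ± 32.2 CPM (log2 fold change 1.37), while Tgfbi, a matrix protein gene induced by TGF-beta, was lower at 681 ± 85.8 against 1159 ± 27.9 CPM (log2 fold change -0.77). The list held 16 at least 2-fold higher and 0 lower of 18, and Areg, at 0 in marrow, could only be higher once tested. Stromal and epithelial marker sums, given above, were likewise higher in cornea. The part of stromal and epithelial RNA in the values of these growth factors was not tested.

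On the receiving side, Tgfbr1 stood at 694 ± 102 against 67.2 ± 4.04 CPM and Tgfbr2 at 209.6 ± 14.3 against 84.1 ± 4.80 CPM (log2 fold changes 3.37 and 1.32), and the inhibitors Smad7 and Skil at 35.8 ± 7.79 against 3.72 ± 0.685 CPM and 1217 ± 137 against 48.7 ± 13.1 CPM. Smad3, the signal carrier, stood at 39.4 ± 11.1 against 22.1 ± 6.48 CPM (log2 fold change 0.83), with overlapping libraries and a call lost with total counts, with lane as a covariate, within either lane, with marrow libraries 3 and 4 only and without marrow library 3 (log2 fold change 0.72). Nrros, which tethers latent TGF-beta on myeloid cells, was lower at 229 ± 35.9 against 402 ± 20.1 CPM (log2 fold change -0.81). The TGF-beta list held 9 at least 2-fold higher and 0 lower of 15, and 1 gene at 0 in marrow could only be higher once tested.

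Integrin chains differed in both directions. Itga4 and Itgb7, chains of homing integrins, stood at 45.0 ± 12.0 against 382 ± 63.8 CPM and 17.1 ± 4.16 against 960.1 ± 9.52 CPM, and Itgal (LFA-1) at 20.9 ± 9.14 against 304 ± 28.0 CPM, all lower in cornea (log2 fold changes -3.09, -5.81 and -3.86). Itga9 and Itga5, which bind matrix, stood at 157 ± 31.6 against 0.739 ± 0.510 CPM and 1234 ± 367 against 71.4 ± 8.83 CPM, and Itgav at 854 ± 38.3 against 84.0 ± 10.3 CPM, all higher (log2 fold changes 7.60, 4.11 and 3.35). Itgax (CD11c) stood at 58.4 ± 3.82 against 0.738 ± 0.487 CPM, and Itgb2, the shared beta chain of CD11b and CD11c, at 849 ± 43.7 against 1049.7 ± 77.0 CPM (log2 fold change -0.31), a call lost without cornea library 1 or 2 or marrow library 1 (log2 fold changes -0.28 to -0.29), with DESeq2 size factors, a minimum count of 50, lane as a covariate, within lane 3 and with marrow libraries 3 and 4 only. The adhesion ligands Icam1 and Vcam1 stood at 1291 ± 245 against 44.8 ± 5.11 CPM and 562 ± 190.0 against 15.6 ± 18.9 CPM, and Selplg, the P-selectin ligand, at 141 ± 12.4 against 672 ± 23.9 CPM. The list held 9 at least 2-fold higher and 8 lower of 19.

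Cell division genes were lower in cornea. Top2a, a topoisomerase of dividing cells, was at 55.3, 53.8, 46.6 and 25.5 CPM in cornea and 404, 295, 325 and 358 CPM in marrow (log2 fold change -2.93 ± 0.23, edgeR adjusted p = 9.9e-07). Mki67 was at 154, 146, 182 and 63.5 CPM against 409, 306, 361 and 383 CPM (log2 fold change -1.42 ± 0.27, edgeR adjusted p = 0.00071). The libraries of the populations did not overlap in either gene, but cornea levels were well above 0. Rrm2 stood at 9.13 ± 1.64 against 131 ± 23.1 CPM, Cdk1 at 6.39 ± 1.09 against 53.2 ± 8.50 CPM, Plk1 at 1.35 ± 0.810 against 45.7 ± 3.55 CPM and Mcm5 at 28.0 ± 4.98 against 101 ± 12.1 CPM, with log2 fold changes of -3.84, -3.06, -5.07 and -1.85. All 13 of 13 mitotic genes were at least 2-fold lower, against 8 of 12 replication genes. Of the G1 regulators the inhibitor Cdkn1a (p21) was higher at 679 ± 103 against 13.1 ± 3.10 CPM, as were the D cyclins Ccnd1 (12.9 ± 3.81 against 0.524 ± 0.294 CPM) and Ccnd2 (123 ± 30.5 against 1.36 ± 1.13 CPM), while Ccnd3 (6.93 ± 2.30 against 219 ± 9.92 CPM) and E2f2 (2.60 ± 1.20 against 166 ± 17.3 CPM) were lower. Pcna was at 65.3, 72.2, 62.7 and 71.8 CPM in cornea and 34.5, 28.1, 19.2 and 17.8 CPM in marrow, higher in cornea (log2 fold change 1.45), unlike most replication genes.

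**Figure D5:**
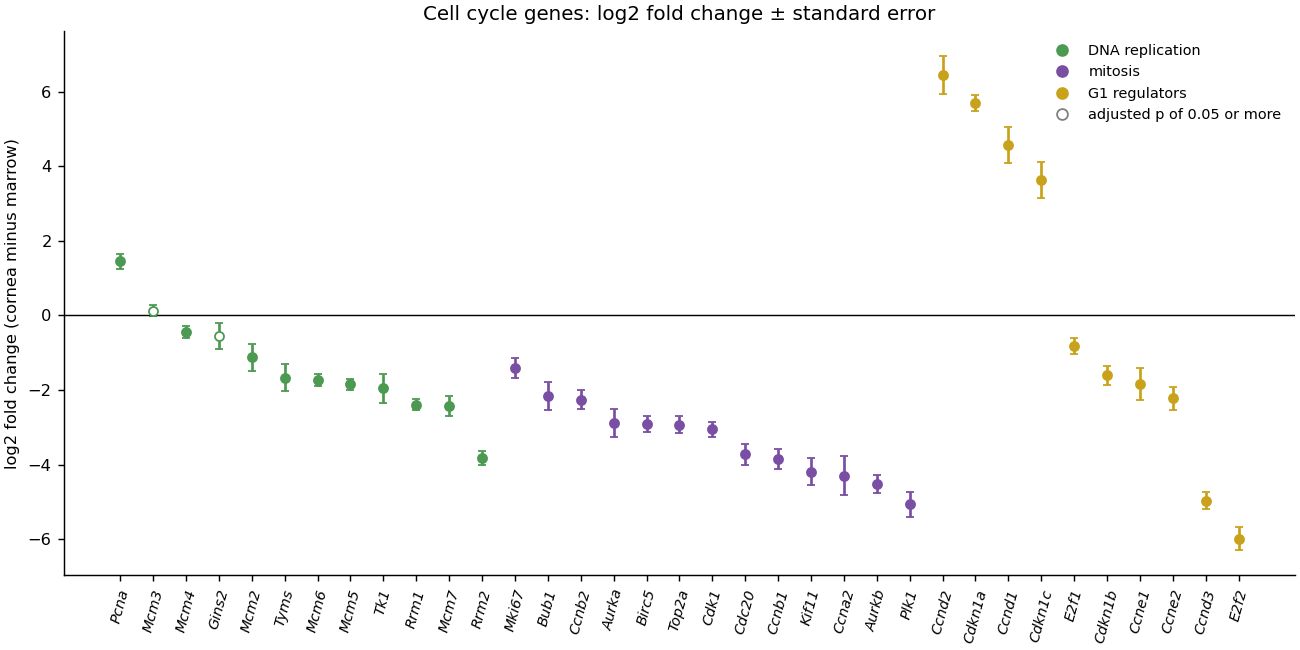
Log2 fold change (cornea minus marrow) ± standard error of 35 cell cycle genes, grouped by role; open symbols were not called. All 13 mitotic genes lie below -1, while Pcna, Ccnd1, Ccnd2, Cdkn1a and Cdkn1c lie above 1.

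Interferon-stimulated genes did not move as a block. Rsad2 (viperin) was at 608, 873, 744 and 1075 CPM in cornea and 93.5, 109, 94.4 and 103 CPM in marrow (log2 fold change 3.05 ± 0.18, edgeR adjusted p = 8.8e-08), and Isg15, Ifit1 and the RNA sensor gene Ifih1 were higher at 271 ± 56.1 against 38.4 ± 9.86 CPM, 741 ± 234 against 110.0 ± 18.3 CPM and 514 ± 23.5 against 85.1 ± 13.2 CPM. Irf7 and Mx1 stood at 179 ± 48.5 against 343 ± 66.3 CPM and 32.0 ± 16.3 against 99.5 ± 38.2 CPM, both lower, with overlap for Mx1, and Irf7 was not called within lane 3 (log2 fold change -0.52, adjusted p = 0.14). Of 22 members, 5 were called higher, 11 lower and 6 not called, against 34.1% higher and 31.4% lower among all genes. At least 2-fold, 5 were higher and 5 lower, close to the 26.7% and 22.1% of all genes. The 5 called higher were Rsad2, Isg15, Ifit1, Ifih1 and Bst2, and Bst2 was not called with total counts. Ifit3 was not called (253 ± 92.6 against 246 ± 37.3 CPM).

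Pattern recognition receptors were also divided. Cd14, the LPS co-receptor, was at 4658, 5534, 3556 and 6631 CPM in cornea and 43.9, 23.0, 22.5 and 22.4 CPM in marrow (log2 fold change 7.50 ± 0.34, edgeR adjusted p = 1.4e-08), whereas its partner Tlr4 was not called (37.0 ± 10.5 against 47.3 ± 10.1 CPM). Tlr2 and Tlr7 were higher at 1492 ± 154 against 162 ± 15.1 CPM and 235 ± 26.1 against 83.0 ± 5.16 CPM. Lectins of one gene cluster went both ways: Clec4d, Clec4e and Clec4n were higher, Clec4d at 1004 ± 135 against 4.20 ± 0.825 CPM and Clec4n at 269 ± 45.0 against 2.73 ± 1.35 CPM, while Clec4a1 (74.9 ± 12.6 against 109 ± 8.36 CPM) and Clec4a3 (73.2 ± 4.99 against 321 ± 25.9 CPM) were lower, as was the beta-glucan receptor Clec7a (154 ± 15.4 against 479.6 ± 67.8 CPM, log2 fold change -1.64). Clec4a1 was not called within either lane, and Clec12a not in all 8 libraries (295 ± 16.1 against 270.1 ± 15.5 CPM). The list held 10 at least 2-fold higher and 5 lower of 25, against 26.7% and 22.1% of all genes.

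Genes of antibody binding, oxidative burst and growth factor sensing came in small lists. Fcgr2b, the inhibitory Fc receptor, stood at 182 ± 19.4 against 109.5 ± 20.9 CPM, and its log2 fold change was -0.01 with total counts; Fcgr4 (19.3 ± 3.66 against 10.6 ± 4.13 CPM) overlapped and was not called with total counts, within lane 2 or without marrow library 2, 3 or 4 (log2 fold changes 0.72 to 0.76), and Fcgr2b was not called within lane 2. Fcgr3 was not called (274 ± 80.2 against 270.0 ± 50.3 CPM). Fcgrt, the neonatal Fc receptor, stood at 223 ± 38.9 against 75.8 ± 7.15 CPM (log2 fold change 1.56). The oxidase subunits Cybb (2079 ± 45.5 against 2883 ± 472 CPM) and Ncf1 (159.7 ± 18.4 against 268 ± 21.8 CPM) were lower, with log2 fold changes of -0.47 and -0.74, and Cybb was not called within either lane. Rac2 stood at 263 ± 14.4 against 754 ± 49.7 CPM and the proton channel Hvcn1 at 74.2 ± 16.2 against 16.9 ± 3.26 CPM. Csf3r, the G-CSF receptor, was lower at 98.4 ± 17.9 against 212 ± 9.11 CPM, and Flt3 at 3.90 ± 2.46 against 31.0 ± 9.82 CPM. Kit, Csf2ra and Csf2rb were not called (2.03 ± 1.83 against 4.56 ± 3.43 CPM, 163 ± 35.0 against 163 ± 21.2 CPM and 188 ± 38.5 against 224 ± 11.6 CPM).

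The glucose transporter Slc2a1 stood at 158 ± 41.4 against 24.8 ± 3.20 CPM and Hif1a at 650.2 ± 152 against 173 ± 31.7 CPM (log2 fold changes 2.67 and 1.91), both higher in cornea. Eno1 was lower at 59.1 ± 2.36 against 274 ± 20.6 CPM (log2 fold change -2.21), and Hk2 (119 ± 19.4 against 107 ± 18.1 CPM) and Ldha (203, 195, 213 and 186 CPM in cornea against 179, 159, 179 and 191 CPM in marrow) were not called, as was Gapdh (3.63 ± 1.48 against 3.19 ± 0.719 CPM), which has many near-identical pseudogenes. Reads that also match these copies may not have been counted, so this low value is not read as the expression of Gapdh. Of 23 members 4 were at least 2-fold higher and 6 lower, against 26.7% and 22.1% of all genes. Nothing about the list as a whole is read from these counts.

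Of 11 tested genes used as markers of microglia, 9 were at least 2-fold higher in cornea than in marrow and 2 lower. Fcrls stood at 957 ± 73.5 against 0.469 ± 0.315 CPM, Olfml3 at 84.0 ± 8.23 against 0.447 ± 0.533 CPM, Gpr34 at 63.8 ± 16.8 against 2.18 ± 0.433 CPM, P2ry12 at 62.9 ± 19.8 against 5.95 ± 1.42 CPM and Tmem119 at 18.1 ± 3.00 against 4.39 ± 0.901 CPM. Sparc, a matrix protein gene that stromal cells also make, stood at 374 ± 107 against 0.528 ± 0.272 CPM; stromal marker sums were higher in cornea too, and their part in this difference was not tested. The lower ones were Cx3cr1, given above, and Crybb1 (1.35 ± 0.342 against 5.10 ± 1.43 CPM, log2 fold change -1.90), which was not called within lane 3. Sall1, the microglial identity factor, did not pass the filter on low counts (0.0904 CPM in cornea). On a common scaling of all 16 libraries, P2ry12 was at 70.2 ± 21.2 CPM in cornea, 6.97 ± 1.57 CPM in marrow, 7527 ± 1012 CPM in retinal microglia and 13785 ± 519 CPM in brain microglia. On the same scaling Fcrls was at 1069.6 ± 69.9, 0.548 ± 0.365, 591 ± 153 and 3453 ± 520.3 CPM, and Mrc1 at 1553 ± 101, 21.3 ± 2.11, 9.31 ± 3.07 and 19.0 ± 6.71 CPM. These levels describe the 4 populations and were not tested.

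Over all genes, the 15 largest differences in each direction were taken among called genes with no overlap and a mean of at least 100 CPM in the higher population, and some of them were in no list. Flrt3, an adhesion protein of the FLRT family, was at 839, 676, 564 and 815 CPM in cornea and 0 in marrow, at least 16168-fold higher in cornea. A2m, a protease inhibitor, was at 346, 357, 689 and 316 CPM in cornea, with library 3 above the others, and 0 in marrow, at least 9693-fold higher in cornea. Ctla2b was at 147 CPM and 0, at least 3305-fold higher in cornea. On the marrow side, I830127L07Rik was at 489.7, 461, 419.8 and 449 CPM in marrow and 0 in cornea, at least 8355-fold lower in cornea, and RP23-191E1.1 at 138 CPM and 0, at least 2669-fold lower in cornea. Gm9733 had 3 counts in cornea, a ratio of 2319 (95% counting interval 793 to 11246). The hemoglobin genes Hba-a1, Hba-a2, Hbb-bs and Hbb-bt, at 204, 151, 447 and 202 CPM in marrow, completed this end, with reads that near copies may share. Dcn and Kera of the stroma and Krt12 of the epithelium were among the 15 largest on the cornea side.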

How the data were processed

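Gene counts of the 8 libraries came from one deposited table of raw read counts with 45664 entries. CASAVA 1.8.2, Subread, featureCounts, limma and the build GRCm38.p4 are named per the submitters' processing notes, without roles, and the annotation and the handling of strand and multi-mapping reads are not stated there. The protocol text names a stranded mRNA kit but describes another tissue, so overlapping antisense genes and near-identical copies may share reads. 27 symbols were changed to dates (0.183 to 0.223% of counts) and were kept.

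edgeR 4.0.16 (R 4.3.3) was run with filterByExpr (minimum count 10), TMM factors, glmQLFit and glmQLFTest on population alone, with Benjamini-Hochberg adjustment over all genes tested. Replicate libraries had Spearman correlations as given above. Code was tested on simulated counts with known changes. A gene at 0 in all libraries of a population was bounded against 3 counts over the group. It could pass the filter on low counts only through the other population, so its direction was fixed once tested. A gene with few counts in 1 population could likewise pass only through the other. Ratios against 1 to 3 counts carry exact 95% intervals that cover counting error only. Alternatives were DESeq2 1.42.0, limma-voom (limma 3.58.1), other scalings and filters, all 16 libraries, lane, leaving out each library and, chosen after seeing the data, marrow libraries 3 and 4 only.

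The populations and the 32 lists (533 genes) were chosen with earlier results of these data known. Named genes were core members fixed by role, up to 4 called members per list with the largest change (mean of at least 20 CPM, no overlap), the 15 largest changes in each direction over all genes, and markers of other cells of at least 20 CPM. The rule also took up to 2 members per list that were not called, and those outside the core are covered by the counts. Clec10a, Hpgd, Crybb1, Il18, Il6ra, Tnfrsf1a and Il10ra were added after their values were seen. Some genes that the rule takes are not reported here. Promoters are RefSeq sequences of GRCm38.p6, and gene positions come from GENCODE vM21, which matched 41918 symbols (91.8%).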

Additional observations from a re-analysis of the deposited data

Results flagged for a closer look

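In groups of 4 libraries, 1 library stood apart from the other 3 by more than the limit of Dixon's test in 34 of 469 groups tested, where chance alone gives about 1 in 20. Marrow library 1 was apart for 7 genes. It held more Dusp1 (225 CPM), Cxcr4 (32.1), Cd14 (43.9), C5ar1 (31.3) and Ptgs1 (66.5), and less Ifit1 (82.8) and Nfkb1 (102). Marrow library 4 held more F13a1 (6988 CPM), Fn1 (6758), Hif1a (221), Rel (147), Cfp (298) and Casp4 (30.3), less Casp1 (78.1), and the largest mitochondrial share of counts (2.13%).

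Cornea library 1 was high for the epithelial keratins Krt12 (428 CPM) and Krt5 (189), for Thbs1 (1113) and Vegfa (298), and low for Mertk (26). Cornea library 2 was high for Irf8 (210 CPM) and Tgfbr1 (846). Cornea library 3 was high for A2m (689 CPM), Plau (674), Fos (359) and Ch25h (197). Cornea library 4, the only cornea library of lane 3, was low for Cxcl2 (12627 CPM), Cxcl3 (577), Ctsd (3651), Txnrd1 (2290) and Itgam (459), and apart for Tnip3 (1017), Ifih1 (549) and Nfatc1 (65).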

How the results depend on the processing

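No paired analysis was possible because the replicate numbers were given in accession order. The split of calls into higher and lower moved most with total counts. With total counts 3135 genes were called higher and 7177 lower, 5710 were at least 2-fold lower, and 2985 and 6860 genes had no overlap above and below. At an absolute log2 fold change of 2 or more, 2372 genes were higher and 1461 lower. DESeq2 called 9300 genes, limma-voom 9504 and the fit with marrow libraries 3 and 4 only 8144 of 15180. Of 297 called genes named in the text, 266 kept call and direction in all the alternatives that tested them. The others were Alox5, Arg1, Bst2, Casp1, Cebpa, Cfp, Clec10a, Clec4a1, Crybb1, Csf1r, Ctss, Cxcr2, Cxcr4, Cybb, Fcgr2b, Fcgr4, Gfi1, H2-DMb1, Hpgd, Ier2, Il1r2, Irf7, Itgam, Itgb2, Mmp9, Msr1, Ptgs1, S100a8, S100a9, Slc40a1 and Smad3. Log2 fold changes that changed sign were as follows, of genes mostly not called in the main fit of all 8 libraries. With total counts Clec12a -0.62, Ctss -0.27, Fcgr2b -0.011, Fcgr3 -0.72, Gapdh -0.56, H2-DMb1 -0.20, Hk2 -0.59, Ier2 -0.14, Ifit3 -0.71, Il18 -0.51, Ldha -0.57. Of these, Clec12a, Fcgr3, Hk2, Ifit3 and Ldha were called lower with total counts. So was Ctss, which the main fit called higher. With upper-quartile factors Clec12a -0.0077, Fcgr3 -0.11, Ifit3 -0.089. Within lane 2 Clec12a -0.0060, Ctsc 0.16, Fcgr3 -0.34, Fos -0.013, Ifit3 -0.10. By DESeq2 Csf2ra 0.051. With DESeq2 size factors Csf2ra 0.051. With a minimum count of 50 Csf2ra 0.070. With lane as a covariate Csf2ra 0.12, Gapdh -0.22. Within lane 3 Csf2ra 0.38, Gapdh -0.65, Kit 0.19. With marrow libraries 3 and 4 only Csf2ra 0.10, Fcgr3 -0.043, Hk2 -0.012. With no filter Fcgr3 -0.035, Ifit3 -0.013. In the fit of all 16 libraries Fcgr3 -0.052, Ifit3 -0.028. With 1 library left out, Csf2ra -0.16 to 0.061, Fcgr3 -0.19 to 0.13, Gapdh -0.10 to 0.39, Ifit3 -0.20 to 0.22. Medians of lists that changed sign were as follows. With total counts myeloid progenitor and monocyte transcription factors -0.71, pattern recognition receptors -0.62, Fc receptors -0.21, glycolysis and hypoxia genes -0.59. With lane as a covariate glycolysis and hypoxia genes -0.017. With 1 library left out, myeloid progenitor and monocyte transcription factors -0.15 to 0.13. The cause of these changes was not tested. Genes with fewer than about 10 counts per library are limited by depth.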

Other observations

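Genes of the antioxidant program of NRF2, a factor that answers oxidative and electrophilic stress, were added after the values were seen. Slc7a11, the cystine importer that feeds glutathione synthesis, was at 2519, 2095, 2039 and 2415 CPM in cornea and 2.36, 1.46, 1.41 and 0.973 CPM in marrow (log2 fold change 10.45 ± 0.28, edgeR adjusted p = 8.9e-10). Both subunits of glutamate-cysteine ligase were higher, Gclm at 739 ± 201 against 22.2 ± 3.49 CPM and Gclc at 635 ± 239 against 28.4 ± 4.96 CPM. The redox enzymes Srxn1 and Txnrd1 stood at 2659 ± 243 against 4.55 ± 2.26 CPM and 2706 ± 279.7 against 42.7 ± 6.00 CPM, the autophagy adaptor gene Sqstm1 at 6723 ± 1042 against 81.3 ± 6.88 CPM, and Nfe2l2, which encodes NRF2, at 1123 ± 149 against 169 ± 20.9 CPM. The metal-binding Mt1 was at 3253, 3036, 3968 and 3371 CPM in cornea and 4.99, 2.66, 2.36 and 1.40 CPM in marrow (log2 fold change 10.16 ± 0.39, edgeR adjusted p = 4.7e-09). Gsr, glutathione reductase, went the other way at 281 ± 25.7 against 780.4 ± 83.4 CPM (log2 fold change -1.47). Of 14 members, 12 were at least 2-fold higher and 1 lower, against 26.7% and 22.1% of all genes.

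Tetraspanins and the genes that sense and clear extracellular nucleotides, also added after seeing values, were mixed. Cd9 and Cd81, tetraspanins of macrophage membranes, stood at 551 ± 71.2 against 9.06 ± 5.12 CPM and 732 ± 219 against 7.92 ± 3.74 CPM, while Tspan32 and Tspan14 were lower at 3.83 ± 1.56 against 35.0 ± 3.52 CPM and 84.7 ± 15.5 against 185 ± 15.0 CPM. Of 14 tetraspanins 7 were at least 2-fold higher and 2 lower. P2ry2, a receptor for ATP and UTP, was at 116, 109, 96.6 and 141 CPM in cornea and 1.50, 1.03, 1.34 and 2.37 CPM in marrow (log2 fold change 6.18 ± 0.25, edgeR adjusted p = 7.1e-09). P2ry1, a receptor for ADP, was at 0.906, 2.86, 0.276 and 2.95 CPM in cornea and 37.0, 26.9, 42.2 and 31.3 CPM in marrow (log2 fold change -4.26 ± 0.52, edgeR adjusted p = 2.9e-05). P2rx7, the ATP-gated channel that triggers IL-1 release, stood at 537 ± 58.7 against 82.9 ± 6.42 CPM. The ectonucleotidase genes Entpd1 (CD39) and Nt5e (CD73), which turn ATP into adenosine, stood at 407 ± 48.1 against 37.4 ± 4.68 CPM and 20.3 ± 11.2 against 0.528 ± 0.906 CPM. Of 13 members 7 were at least 2-fold higher and 2 lower.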
